A study of Rattus norvegicus with 3 samples.

Results

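Some liver H3K4me2 peaks of an olanzapine-treated rat lay beside or across a peak of a clozapine-treated rat, and these peaks are described here. They were selected on the positions in both peak lists: an olanzapine peak on chromosomes 1 to 20 was taken as a member when it overlapped any clozapine peak or lay less than 1000 bp from one. The rule found 378 members among 6998 olanzapine peaks on these chromosomes, which is 5.40% (95% Wilson interval 4.90% to 5.96%). The whole olanzapine list held 7128 peaks and the whole clozapine list 19449.

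Female Sprague-Dawley rats, an outbred strain, received olanzapine at 3 mg/kg or clozapine at 20 mg/kg by mouth, 2 times a day over 9 weeks, both being second-generation antipsychotic drugs, or were given a pellet with no drug (vehicle), with 12 animals in each group of the study. Olanzapine was eaten in a sweet pellet, whereas clozapine was given by syringe after the animals began to avoid it, so drug and route of delivery cannot be told apart. Fasted rats were killed shortly after the last dose, and 1 liver library per group, each labelled with a single rat, was made by chromatin immunoprecipitation with an antibody to dimethylated lysine 4 of histone H3. With 1 library per drug there was no replicate, so nothing below is tested between drugs. The read tables published with the data list fewer genome reads for the clozapine than for the olanzapine library, and the part of depth in the results was not tested. No vehicle peak list was analysed here, and no peak can be ascribed to either drug.

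H3K4me2 is a mark of promoters and enhancers that are active or held ready. It usually flanks the start of a gene, between the trimethylated form at the start itself and the monomethylated form at enhancers. In liver it is found at genes for plasma proteins, detoxifying enzymes and the transcription factors that define the hepatocyte, as well as at genes used in every cell.

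At 15 members the olanzapine peak and its nearest clozapine peak were both placed at the start of the same gene, in the class of the 5′ untranslated region (5′ UTR) or the class upstream of the gene. In 3 of these both peaks were in the 5′ UTR class. They were Myh10, a heavy chain of nonmuscle myosin, Eif5a, a translation factor carrying the modified amino acid hypusine, and Hsp90ab1, the constitutive cytosolic HSP90 chaperone. Eif5, a translation initiation factor that acts on the GTP bound by eIF2, had an upstream olanzapine peak and a 5′ UTR clozapine peak. Rpl26, a protein of the large ribosomal subunit, had a 5′ UTR olanzapine peak and an upstream clozapine peak. Both peaks stood at the gene's start in all 15, and the promoters of these 5 genes are shown as examples. The sequences are those of RefSeq on build GRCr8, running 5′ to 3′ on the strand of the gene. Each covers 250 bases before the start of the gene and 50 after it. The peaks were placed on another build, Rnor_6.0, so the sequence under a peak was not read. Capitals mark CCAAT, the GC box GGGCGG, and TGACGT, the core of the cAMP response element, on either strand; where marked motifs overlap or touch, the capitals run on.
Myh10: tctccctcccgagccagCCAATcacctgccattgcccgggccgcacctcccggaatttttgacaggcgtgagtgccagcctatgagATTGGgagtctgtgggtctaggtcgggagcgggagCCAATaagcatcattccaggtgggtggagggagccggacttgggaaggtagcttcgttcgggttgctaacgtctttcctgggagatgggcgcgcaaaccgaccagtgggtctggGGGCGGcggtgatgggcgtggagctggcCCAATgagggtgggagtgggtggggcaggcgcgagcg
Eif5a: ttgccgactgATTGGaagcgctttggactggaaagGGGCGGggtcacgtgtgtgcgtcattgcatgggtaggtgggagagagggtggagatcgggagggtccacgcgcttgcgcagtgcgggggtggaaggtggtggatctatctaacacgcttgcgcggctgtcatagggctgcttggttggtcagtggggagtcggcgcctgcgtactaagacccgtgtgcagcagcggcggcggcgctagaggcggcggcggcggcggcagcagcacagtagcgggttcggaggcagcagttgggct
Hsp90ab1: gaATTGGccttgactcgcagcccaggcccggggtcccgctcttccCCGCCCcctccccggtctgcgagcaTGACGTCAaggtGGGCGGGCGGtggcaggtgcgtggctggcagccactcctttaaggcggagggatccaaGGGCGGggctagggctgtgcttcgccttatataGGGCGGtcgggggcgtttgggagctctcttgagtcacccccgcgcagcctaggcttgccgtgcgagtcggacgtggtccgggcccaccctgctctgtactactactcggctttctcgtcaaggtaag
Eif5: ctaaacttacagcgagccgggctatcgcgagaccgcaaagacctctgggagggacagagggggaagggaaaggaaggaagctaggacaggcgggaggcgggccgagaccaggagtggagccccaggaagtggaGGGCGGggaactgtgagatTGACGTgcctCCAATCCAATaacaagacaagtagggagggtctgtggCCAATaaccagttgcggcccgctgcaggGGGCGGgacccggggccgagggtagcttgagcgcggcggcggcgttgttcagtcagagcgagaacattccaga
Rpl26: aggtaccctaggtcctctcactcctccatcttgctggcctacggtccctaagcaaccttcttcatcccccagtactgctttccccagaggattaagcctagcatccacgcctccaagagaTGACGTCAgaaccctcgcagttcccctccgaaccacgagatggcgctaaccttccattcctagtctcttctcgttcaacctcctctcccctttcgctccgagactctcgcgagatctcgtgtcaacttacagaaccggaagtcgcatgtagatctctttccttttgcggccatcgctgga
Myh10 held 4 copies of CCAAT and 1 GC box, and Eif5a 1 copy of each. Hsp90ab1 held 1 copy of CCAAT, 5 GC boxes and the palindrome made by TGACGT on both strands. Rpl26 held that palindrome as well. Eif5 held 3 copies of CCAAT, 2 GC boxes and 1 TGACGT.

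The same letters were counted in the promoters of all genes with an exonic, 5′ UTR or upstream peak, searching both strands of the same window. Of 271 such member genes with a current symbol, 237 had a promoter sequence, as did 3280 of 3877 other genes with an olanzapine peak of these classes. GGGCGG stood in 70.5% of the member promoters (interval 64.4% to 75.9%), against 67.9% of those of the other olanzapine genes and 34.9% of 27457 promoters of all genes. TATAAA, the letters of the TATA box, stood anywhere in the window in 12.7% of member promoters (9.01% to 17.5%). The share was 5.70% in promoters of the other olanzapine genes and 14.3% in all promoters. CCAAT stood in 46.0%, against 39.9% and 37.7%, and TGACGT in 18.1%, against 13.9% and 8.22%. The median GC content was 60.7% in member promoters, against 62.0% in those of the other olanzapine genes and 52.3% in all promoters. Member promoters thus held GGGCGG about as often as those of the other olanzapine genes, with intervals that overlap. They held TATAAA in a larger share than the other olanzapine genes, but their interval holds the 14.3% of all promoters. These are descriptions of letters in a window and say nothing of a factor bound there.

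Of the 378 members, 164 shared at least 1 base with a clozapine peak and 214 lay apart from one. The shared stretch ranged from 2 to 1923 bp with a median of 180.5 bp, and it covered a median of 28.6% of the olanzapine peak. In 62 members the clozapine peak lay wholly inside the olanzapine peak, in 12 the olanzapine peak lay inside the clozapine peak, and in 90 each reached beyond the other. Together the shared stretches came to 50926 bp of the 335673 bp that the members covered. Among members with a gap, the gap ran from 1 to 996 bp with a median of 546.5 bp.

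The distance rule drew its limit through a level stretch of the gap distribution. Gaps of 0 to 499 bp were seen at 96 olanzapine peaks and gaps of 500 to 999 bp at 118, while 123 peaks had gaps of 1000 to 1499 bp and 118 had gaps of 1500 to 1999 bp. The members nearest the limit were Tmem57 with a gap of 996 bp and Rpl26 with a gap of 993 bp. Just outside were Slc25a3 and Unc13b, each with a gap of 1004 bp. Slc25a3, the mitochondrial phosphate carrier, had a fold enrichment of 3.63 for its olanzapine peak and 3.98 for its clozapine peak, which are values also seen among members. In all, 18 members had 2 clozapine peaks within the limit, and 5 clozapine peaks were the nearest one to 2 members each, leaving 373 distinct nearest peaks.

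**Figure D1:**
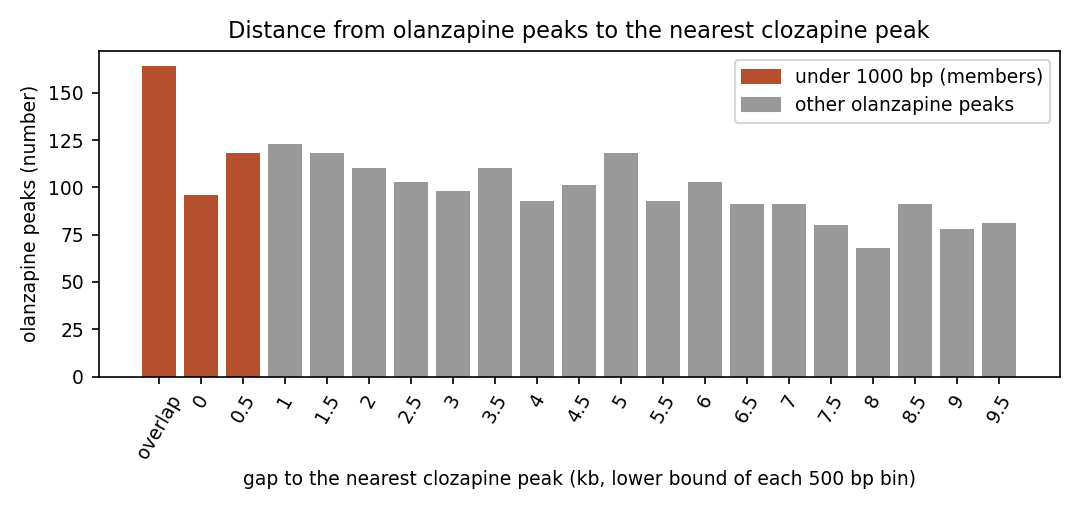
Number of olanzapine peaks on chromosomes 1 to 20 (vertical axis) by the gap to the nearest clozapine peak (horizontal axis, kb, 500 bp bins, with overlapping peaks at the left). The 3 coloured bars are the members (164, 96 and 118 peaks) and the grey bars are other olanzapine peaks, which begin at 123 and 118 in the next bins.

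Exons held most of the members. The exonic class held 217 members, or 57.4% of them, against 40.3% of the 6620 other olanzapine peaks. Intergenic peaks made up 19.8% of members and 25.3% of the others, introns 9.26% and 14.2%, the 5′ UTR 9.26% and 15.2%, and upstream regions 2.38% and 3.93%. Read the other way, 7.52% of 2884 exonic olanzapine peaks were members (6.62% to 8.54%), against 3.37% of 1039 in the 5′ UTR (2.43% to 4.65%), 3.35% of 269 upstream, 3.58% of 977 intronic and 4.28% of 1753 intergenic ones. By these labels, the classes at gene starts, where H3K4me2 is best known, held a smaller share of members than the exonic class did. A peak labelled exonic can also cover a gene start. At Tmem120a, an upstream clozapine peak lay inside the exonic olanzapine peak. Of the 217 exonic members, 10 had an upstream nearest clozapine peak and 4 one in the 5′ UTR. How far the labels shaped these shares was not tested. The small classes at the other end of genes had larger shares with wide intervals, at 3 members of 13 peaks in the 3′ UTR (8.18% to 50.3%) and 4 of 30 downstream of the gene (5.31% to 29.7%).

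Members were longer on the whole. Their median length was 689 bp (quartiles 393 and 1218 bp), against 573 bp (331 and 940 bp) for the other olanzapine peaks. A longer peak meets or approaches more positions by its size alone, so length is not independent of the rule. The share of members was 3.97% of the 2619 peaks longer than 200 and up to 500 bp, 5.09% of 2438 up to 1000 bp, 7.61% of 1340 up to 2000 bp and 10.9% of 229 longer than 2000 bp. The shortest peaks, of 196 to 200 bp, did not continue this order, with 6.18% of 372 (4.15% to 9.11%). In exons the share was 12.9% of 70 peaks of 196 to 200 bp (6.91% to 22.7%), 4.53% of 883 peaks longer than 200 and up to 500 bp and 12.8% of 156 peaks longer than 2000 bp. Outside exons the same bins held 4.64%, 3.69% and 6.85% members. Among peaks longer than 500 bp, 66.9% of members were exonic, against 46.9% of the other olanzapine peaks.

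**Figure D2:**
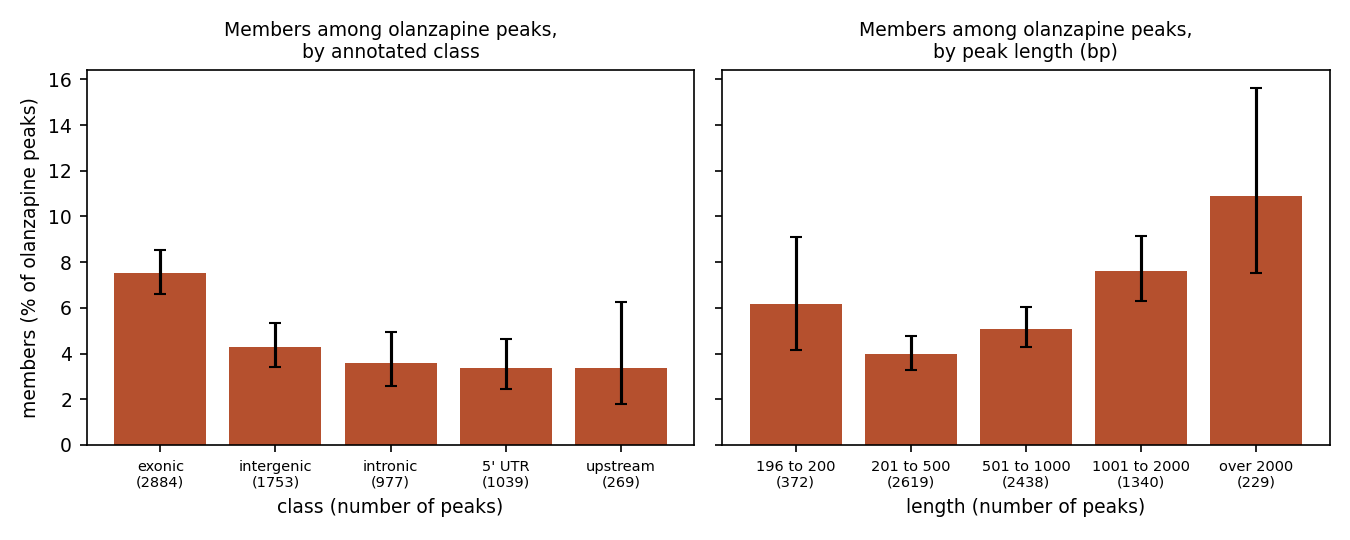
Percent of olanzapine peaks that were members (vertical axis) by annotated class (left) and by peak length in bp (right), with the number of peaks under each bar and 95% Wilson intervals as error bars, which cover counting error only. Exonic peaks reach 7.52% and peaks longer than 2000 bp reach 10.9%.

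Strength differed far less than position. Fold enrichment, the ratio of signal to a background that the sources used here do not name, had a median of 4.33 in members (quartiles 3.92 and 4.82), against 4.29 (3.87 and 4.84) in the other olanzapine peaks. The -log10 p had a median of 5.87 in members, against 5.74 in the others. By fold enrichment, member shares stayed between 4.29% and 5.96% in every bin from 3 upwards. Below a fold of 3 there were 9 members among 53 peaks, or 17.0% (9.20% to 29.2%). Those 9 included the exonic peaks of Tufm and Rpl37a, the 5′ UTR peak of Rpl11, and 5 intergenic peaks, and 6 of the 9 overlapped their clozapine peak.

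The 5 intergenic peaks of low fold lay between genes of varied function. The one before Cdh8 on chromosome 19 (5834905 to 5835153) had a fold of only 2.62 in the olanzapine list but the highest -log10 p of any member, 16.0, and a clozapine peak 405 bp away had a fold of 6.99. Between Slc2a2 and Olr1280 on chromosome 2, a 315 bp olanzapine peak with a fold of 2.35 lay wholly inside a 334 bp clozapine peak with a fold of 5.03 and a -log10 p of 21.1. At 3 others, between RGD1564053 and Prex2, Exoc2 and Irf4, and Gba3 and Kcnip4, a clozapine peak of 273, 246 and 273 bp lay inside an olanzapine peak of 316, 301 and 305 bp. All of these were narrow, and in 4 of the 5 the peaks of both lists nearly coincided.

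The clozapine peaks nearest the members differed in makeup from the clozapine list as a whole. Their median length was 211 bp, against 171 bp for all 18521 clozapine peaks on the same chromosomes, and the longest was 4058 bp. The shortest length in that list, 170 bp, was that of 29.4% of the nearest peaks (upper bound 34.1%), against 41.5% of all clozapine peaks. Exons held 51.9% of the nearest peaks, against 21.2% of all, and upstream regions 6.35%, against 0.61%. Intergenic regions held 22.5%, against 51.3%. Median fold enrichment was 4.01, against 3.78. Part of this difference is fixed by the choice of peaks, since olanzapine peaks themselves lie mostly in genes.

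Seen from the clozapine list, 389 of 18521 peaks, or 2.10%, came within 1000 bp of an olanzapine peak. The share was 20.4% of 113 upstream peaks (14.0% to 28.7%) and 18.2% of 44 in the 5′ UTR (9.51% to 32.0%), against 5.20% of 3922 exonic, 1.24% of 4356 intronic and 0.94% of 9507 intergenic ones. Clozapine peaks longer than 1000 bp came near an olanzapine peak in 9.86% of 558 cases, against 1.59% of 11892 clozapine peaks of up to 200 bp. Among these classes, the few clozapine peaks at gene starts thus had the larger shares beside an olanzapine peak.

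Both peaks of a pair mostly carried the same gene name. At least 1 gene name was shared in 361 of 378 pairs, or 95.5% (92.9% to 97.2%), and the same annotated class in 264, or 69.8%. Such sharing follows in large part from the closeness that chose the pairs. Of 217 exonic members, 167 had an exonic nearest clozapine peak, 25 an intronic one and 10 an upstream one. Of 35 members in the 5′ UTR, 12 had an exonic nearest clozapine peak, 11 an upstream one, 8 an intronic one and only 3 one in the 5′ UTR. Of 75 intergenic members, 72 had an intergenic partner.

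Genes with a member were short. On GRCr8, 271 of 274 genes with an exonic, 5′ UTR or upstream member had a length and were protein-coding, with a median of 6262 bp, against 21753 bp for 3872 other genes with such an olanzapine peak. Genes under 5000 bp made up 43.5% of member genes (37.8% to 49.5%), against 11.6% of the other olanzapine genes. Where a gene under 5000 bp had a peak in both lists, it had a member in 119 of 178 cases, or 66.9%. The share was 16.7% of 562 genes of 5000 to 20000 bp and 5.12% of 1444 longer genes. Peaks within a short gene cannot lie far apart, so gene length is not independent of the distance rule. Having a peak in both lists was itself less frequent in short genes, at 29.7% of 599, than in the longest group, at 54.8% of 2637. The gene groups below differ in gene length. Among their genes with an olanzapine peak, the median was 2939.5 bp for ribosomal proteins, 3397 bp for immediate early genes and 5603 bp for housekeeping genes. It was 23521.5 bp for glucose and insulin, 28472 bp for lipid metabolism and 66738 bp for chromatin. The first 3 of these groups had larger shares of genes with a member than the other 3, and the part of gene length in those counts was not tested.

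Over all genes named by a non-intergenic olanzapine peak, 6.27% (313 of 4996) had a member. Against this background, the housekeeping list had members at 11 of its 19 genes with an olanzapine peak, and the lists for splicing at 6 of 16, immediate early and growth response at 8 of 23, hepatocyte markers at 7 of 27 and protein folding and stress at 4 of 20. The 4 of 20 for protein folding and stress counts Hspa8, for which the name of the peak is uncertain, as told below. Hepatocyte transcription factors and drug metabolism each had members at 3 of 19. Glucose and insulin had none at 20 genes, chromatin and H3K4 methylation none at 10, the circadian clock none at 7, and lipid metabolism 1 at 30. These last counts are too small to set apart from the 6.27%. By gene length, the share over all genes with an olanzapine peak was 20.9% of 599 under 5000 bp and 3.07% of 2637 over 20000 bp. In the glucose list, 6 genes had a peak in both lists without any pair under 1000 bp, as did 7 in the chromatin list and 17 of 18 in the lipid list. Most genes with a peak in both lists were of this kind, since only 287 of 2184 (13.1%) had a member. A gene may stand in more than 1 list. Short lists of 12 to 15 markers each stood for endothelial, stellate, Kupffer, cholangiocyte, neutrophil and lymphocyte cells. None of these markers had an olanzapine peak, and so none had a member. The clozapine list named between 3 and 11 genes of each of these lists. Genes outside the lists were not sorted by cell type. Among them, Mpeg1, a gene named for its expression in macrophages, had an exonic member with a fold of 4.34. A single neuron-list gene, Tubb3, had a member.

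**Figure D3:**
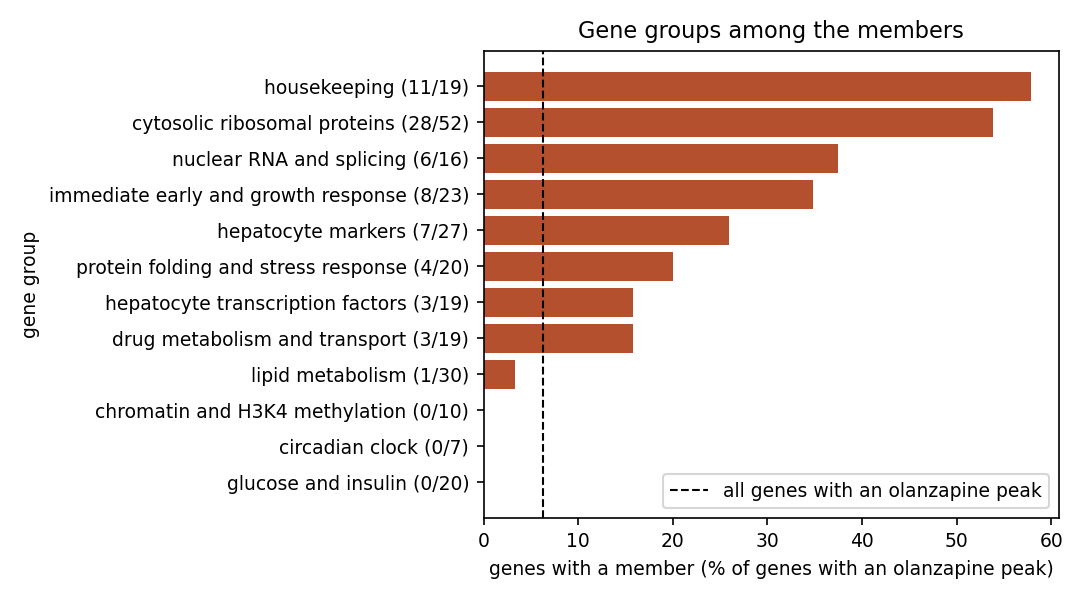
Percent of each gene group's genes with an olanzapine peak that had a member (horizontal axis), with both numbers after the group's name (members/genes), for 12 of the gene groups. The dashed line is the 6.27% of all genes with an olanzapine peak, whatever their length. Housekeeping and ribosomal protein genes exceed 50%, and 3 groups, of 7 to 20 genes, stand at 0.

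Ribosomal protein genes were the most numerous family, although they were picked out after the values had been seen. By symbol, 52 cytosolic ribosomal protein genes had an olanzapine peak, 41 of these also had a clozapine peak, and 28 had a member. Of the 52 genes, 45 were under 5000 bp. Over all genes of that length with a peak in both lists, ribosomal ones included, 66.9% of 178 had a member, a share close to the 28 of 41. Without asking for a clozapine peak, 53.8% of the 52 genes had a member, against 20.9% of 599 olanzapine genes under 5000 bp. Of those 599, 29.7% had a peak in both lists. What lies behind this difference was not tested. These proteins build the small (Rps) and large (Rpl) ribosomal subunits. Across the 28 members, the olanzapine fold enrichment ranged from 2.90 to 6.82 with a median of 3.77, against a median of 4.33 over all members, while the nearest clozapine peaks ranged from 2.86 to 14.6 with a median of 5.04, against 4.01. The background behind each list's fold is not named, so folds of both lists are set side by side and not compared.

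Rps29, of the small subunit, had the highest clozapine fold of the family. Its 401 bp olanzapine peak (chromosome 6, 91456222 to 91456622) had a fold of 3.48 and a -log10 p of 5.75, and its 814 bp clozapine peak had a fold of 14.6 and a -log10 p of 42.6, with 113 bp in common. Rps27, a zinc finger protein of the small subunit, had an exonic olanzapine peak with a fold of 3.22 and, 7 bp away, a clozapine peak with a fold of 10.4. Both had an olanzapine fold below the lower quartile of the members (3.92) and a clozapine fold above the upper quartile of the nearest peaks (4.81). Rpl13a, also used as a reference gene, was above the upper quartile in both, with a fold of 6.82 for its olanzapine peak and 6.43 for its clozapine peak, 364 bp apart. Ribosomal protein genes have many near-identical processed copies in the genome. The paper states that uniquely aligned reads were used, but how such copies shaped these peaks was not tested.

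Immediate early genes, which cells switch on within minutes of a stimulus, gave broad peaks in both lists. They had 9 members at 8 genes, of which 7 overlapped the clozapine peak, with median lengths of 1641 bp for the olanzapine and 1405 bp for the clozapine peaks. All of the 3 Jun family genes, which encode subunits of the transcription factor AP-1, were among them. At Jund, the olanzapine peak of 1641 bp (chromosome 16, 20484948 to 20486588; fold 4.19) shared 1524 bp with a clozapine peak of 1594 bp (fold 4.07). At Junb, a clozapine peak of 1483 bp (fold 4.05) lay wholly inside an olanzapine peak of 1821 bp (chromosome 19, 26092836 to 26094656; fold 4.34). At Jun, a 5′ UTR olanzapine peak with a fold of 3.74 shared 37.5% of its length with an exonic clozapine peak of 2545 bp with a fold of 4.46. At Junb and Jund the peaks of both lists nearly coincided.

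The same list held Dusp1, Zfp36, Zfp36l1, Btg1 and Egr1. Dusp1, a phosphatase that switches off MAP kinases, shared 903 bp between an olanzapine peak of 1874 bp (fold 4.28) and a clozapine peak of 1381 bp (fold 3.86). Zfp36, which destabilises AU-rich messenger RNAs, had 2 members at 1 clozapine peak of 1405 bp. The exonic one, of 907 bp and with a fold of 4.72, lay wholly inside it, and the intronic one, of 342 bp and with a fold of 3.13, lay 351 bp from it. Zfp36l1, a relative of Zfp36, and Btg1, an antiproliferative gene, overlapped by 1.43% and 15.0% of their olanzapine peaks. Egr1, a zinc finger transcription factor, had peaks of similar length that did not meet, an olanzapine peak of 867 bp (fold 5.97) and a clozapine peak of 831 bp (fold 3.30). Outside that list, Nfkbia, the inhibitor that holds NF-kB in the cytoplasm, was covered over its full 1396 bp olanzapine peak by a clozapine peak of 2034 bp.

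**Figure D4:**
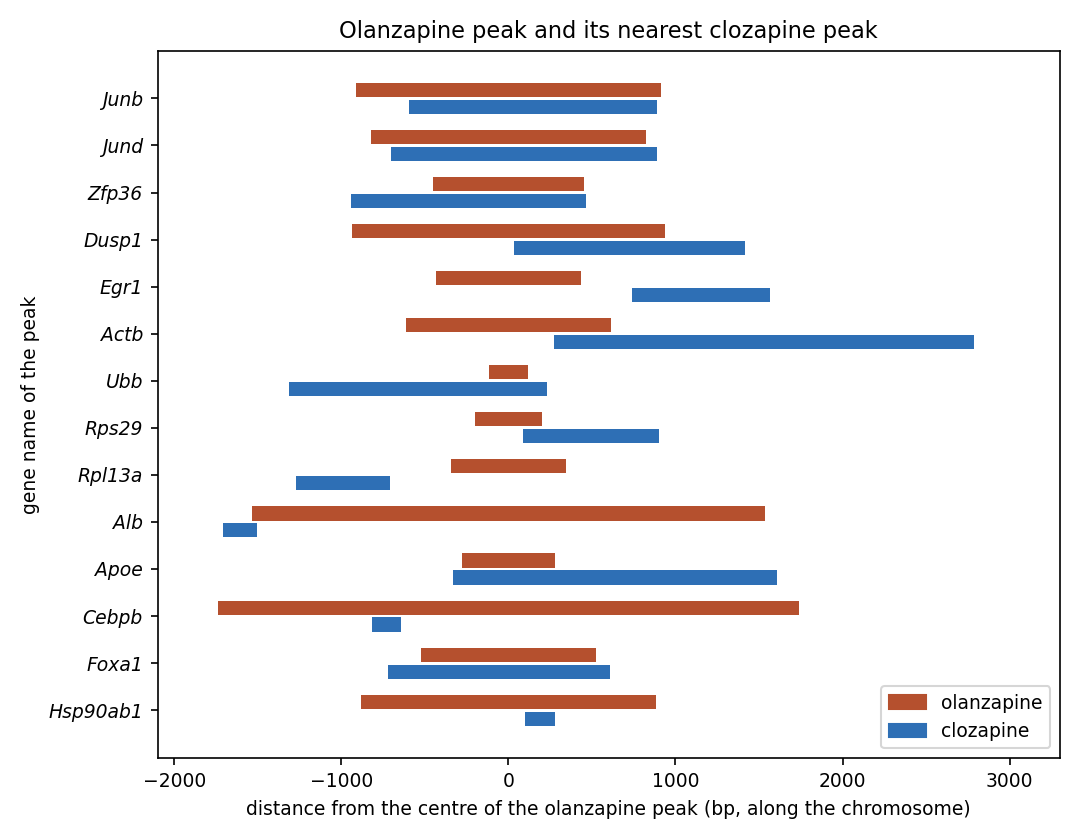
Extent of the olanzapine peak (upper bar of each pair) and of its nearest clozapine peak (lower bar) for 14 named genes, against the distance in bp from the centre of the olanzapine peak along the chromosome; for genes with 2 members the longer olanzapine peak is drawn. Junb, Jund and Foxa1 show nearly coincident peaks, Egr1 and Rpl13a show separate ones, and at Cebpb and Hsp90ab1 a short clozapine peak lies inside a long olanzapine peak.

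Hepatocyte markers gave 9 members at 7 genes. Alb, which encodes serum albumin, had 2. One, of 688 bp with a fold of 3.94, lay wholly inside a clozapine peak of 1333 bp with a fold of 4.98. The other, of 3073 bp with a fold of 4.06 (chromosome 14, 19188325 to 19191397), touched a 200 bp clozapine peak with a fold of 9.35 over 30 bp. Apoe, an apolipoprotein of circulating lipoproteins, likewise had 2 members at 1 clozapine peak of 1940 bp, with folds of 3.95 and 3.29 for the olanzapine peaks and 5.47 for the clozapine peak. Apoa1, the main protein of high-density lipoprotein, shared 55.1% of a 312 bp olanzapine peak.

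Among the other markers, only Cyp1a2 overlapped. Cyp1a2, a cytochrome P450 that metabolises both drugs, had a broad exonic olanzapine peak of 2748 bp with a fold of 5.15, and a clozapine peak of 181 bp with a fold of 4.09 lay inside it. Cyp2e1, an ethanol-oxidising P450, had an intronic olanzapine peak of 347 bp (fold 4.35) and, 416 bp away, an exonic clozapine peak of 1142 bp (fold 5.58). Hp, which encodes haptoglobin, had a gap of 979 bp and Fgg, a fibrinogen chain, one of 285 bp. Sult1a1, a sulfotransferase of phenols and drugs, had an olanzapine peak of 2006 bp with a fold of 5.85, and a 170 bp clozapine peak lay 191 bp from it.

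At 3 hepatocyte transcription factors the olanzapine peaks were broad and all overlapped. Foxa1, a pioneer factor of liver enhancers, had its 1046 bp olanzapine peak (fold 4.26) inside a clozapine peak of 1329 bp (fold 3.90). Its relative Foxa2 had an olanzapine peak of 3071 bp (fold 4.94) around a clozapine peak of 326 bp (fold 3.42). Cebpb, a factor of the acute phase response, had an olanzapine peak of 3482 bp (fold 4.73) around a clozapine peak of 170 bp (fold 4.51), which covered 4.88% of it. Foxa1 was thus the only one of these whose peaks were of like length. Srebf2, the regulator of cholesterol synthesis, was the single lipid-list member, with 135 bp in common.

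Housekeeping and other widely used genes included several with a clozapine fold above 9. Actb, cytoplasmic beta-actin, had an olanzapine peak of 1229 bp with a fold of 4.49 and a clozapine peak of 2517 bp with a fold of 12.7, which shared 345 bp. Ubb, a polyubiquitin gene, had an olanzapine peak of 236 bp with a -log10 p of 7.17 wholly inside a clozapine peak of 1548 bp with a -log10 p of 18.5 and a fold of 9.22. Fth1, the ferritin heavy chain, had a fold of 4.47 for its olanzapine peak and 9.72 for its clozapine peak. Ppia, the peptidyl-prolyl isomerase cyclophilin A, had a 170 bp clozapine peak inside an olanzapine peak of 687 bp. Ppp1ca, a catalytic subunit of protein phosphatase 1, shared 1085 bp, the whole of its clozapine peak. Tubb3, a tubulin used as a neuronal marker, shared 778 bp, with folds of 5.13 and 8.48.

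Chaperone and splicing genes were mixed. Hspa1b, an inducible HSP70, had a short 5′ UTR olanzapine peak of 262 bp (fold 5.71) and an exonic clozapine peak of 1456 bp (fold 3.75) at a distance of 597 bp. Atf4, the transcription factor of the integrated stress response, shared 629 bp between an olanzapine peak of 1182 bp and a clozapine peak of 1188 bp, with folds of 4.04 and 3.94. The peak named Hspa8, a constitutive HSP70, stood on chromosome 6, while the gene of that symbol is on chromosome 8 in GRCr8, so the name of this peak is uncertain. It was the only one of the 303 members outside intergenic regions whose named genes were all on another chromosome in GRCr8. Among splicing factors, Srsf1 had a 233 bp clozapine peak inside its olanzapine peak of 982 bp, and Srsf2 shared 229 bp. Srsf5 and the RNA helicase Ddx5 had long clozapine peaks, of 2709 and 3246 bp, at gaps of 60 and 796 bp from olanzapine peaks of 1340 and 1757 bp.

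The strongest non-intergenic olanzapine peaks among members belonged mostly to genes outside these lists. By -log10 p they were Rpl13a (11.7), the pentose phosphate enzyme Taldo1 (11.2), the myosin Myo3b (11.0), Sfmbt1, a Polycomb-related protein (10.9), Polr2i, a subunit of RNA polymerase II (10.5), Gmppb, an enzyme that makes GDP-mannose (10.0), Rab1a, a GTPase of transport from the endoplasmic reticulum (9.98), and the membrane protein Tmem120a (9.73). Polr2i had a fold of 7.16 for its olanzapine peak and 2.99 for its clozapine peak, with 470 bp in common. Taldo1 had folds of 6.84 and 5.97, and its 178 bp clozapine peak lay inside its olanzapine peak. Sfmbt1 and Myo3b were narrow intronic peaks of 215 and 197 bp with olanzapine folds of 7.12 and 7.03 and clozapine folds of 3.09 and 5.73. By clozapine -log10 p the list was led by LOC102723236 (45.7), an upstream olanzapine peak with a fold of 4.23 beside a noncoding exonic clozapine peak with a fold of 14.6. Rps29, Actb, Rps27, Ubb, Fth1 and Alb were also among the 8 highest. Over the 378 pairs the folds had a Spearman rho of -0.18 and a Pearson r of -0.14, given as a description, since pairs share genes and libraries.

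**Figure D5:**
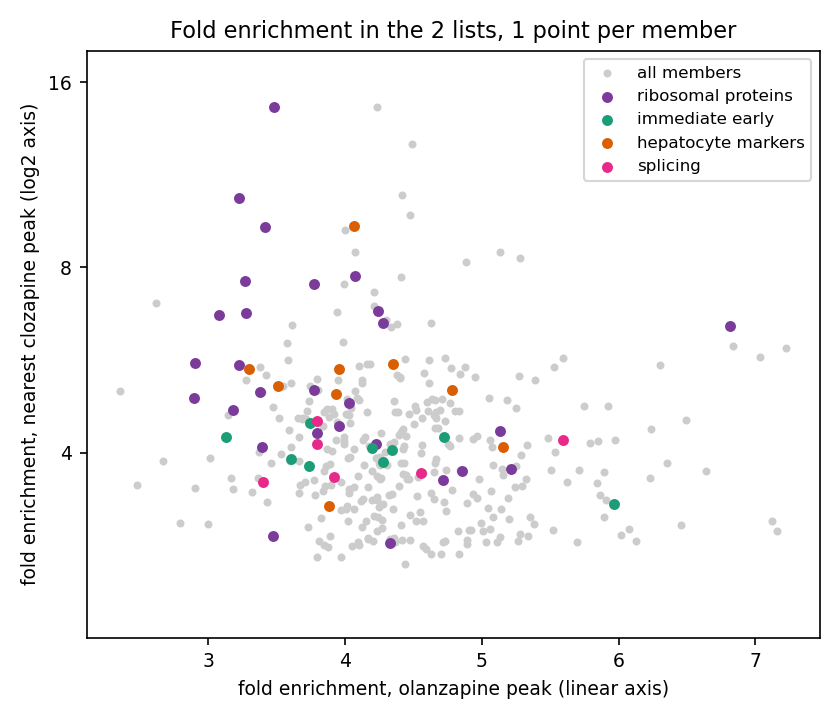
Fold enrichment of each olanzapine member (horizontal, linear axis) and of its nearest clozapine peak (vertical, log2 axis), 1 point per member, with 4 gene groups coloured. Ribosomal protein genes gather at olanzapine folds near 3 to 4 and spread up to a clozapine fold of 14.6 (Rps29).

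Members were spread over all 20 chromosomes with some local clusters. Chromosome 1 held 68 of them, or 7.71% of its 882 olanzapine peaks, and chromosome 7 held 37 of 481, while chromosome 11 held 2 of 197, or 1.02% (0.28% to 3.63%). Within windows of 1000000 bp, the densest stretch held 7 members of 14 olanzapine peaks, on chromosome 1 from 220665438 to 221420928, with Sf3b2, Dpf2 and Fau among the names. Another on the same chromosome, from 197903990 to 198461499, held 6 members of 13, at Tufm, Nupr1, Sult1a1, Mapk3, Aldoa and Kif22. One more held 5 of 8 from 222166164 to 222293850, including Esrra, an orphan nuclear receptor of energy metabolism, and Bad, a promoter of apoptosis. These stretches were chosen for their density and are given without a test.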

How the data were processed

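Peak lists of 2 liver H3K4me2 libraries were analysed, 1 per drug. The authors aligned reads with BWA to Rnor_6.0, a build also named in the submitters' processing notes, and kept uniquely aligned reads without mismatches; the peak caller, its control and its threshold are not given in the sources used here, and the methods differ on the read layout. The deposited lists give each peak's start, end, class, gene, fold enrichment (a ratio), and a p-value and a q-value on the -log10 scale. They hold no read counts, so no value could be set against depth, which the published read tables show to differ between the libraries, and intervals cover counting error of peaks or genes only. Enrichment tables and the shorter second sheet of each list were not used.

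Distances were the bases between peaks, and the nearest clozapine peak was that with the smallest gap, then the longest overlap, then the higher -log10 p. Python 3.11.15, pandas 2.3.3, numpy 2.4.6 and scipy 1.17.1 served for medians, quartiles and 95% Wilson intervals, and matplotlib 3.10.9 for figures. The search was tested on simulated data. Symbols were matched to RefSeq on GRCr8, where 310 of 313 genes of non-intergenic members (99.0%) were found. No test was made, since members were selected on both lists and each drug had 1 library.

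The members and gene lists were chosen with earlier results of these data known. Among non-intergenic members, those named were the 8 with the highest olanzapine -log10 p, the 8 with the highest clozapine -log10 p, the 6 with the longest overlap, up to 4 per gene list by olanzapine -log10 p, and those nearest the distance limit. Some genes that this rule names are not reported here. Other genes in the text were chosen after their values were seen. Alternatives were clozapine peaks longer than 200 bp, a -log10 q of at least 2 in both lists, overlap only, a gap under 2000 bp, and chromosome X added.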

Additional observations from a re-analysis of the deposited data

Results flagged for a closer look

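Chromosome X stood outside the selection, and there 7 of 109 olanzapine peaks (6.42%, 95% Wilson interval 3.15% to 12.7%) lay within 1000 bp of a clozapine peak, a share whose interval holds the 5.40% of chromosomes 1 to 20. These peaks were noted because no comparison above used them. They included exonic peaks of Rpl10, a ribosomal protein, with folds of 5.69 (olanzapine) and 6.57 (clozapine), and of Slc25a5, the ADP/ATP carrier of mitochondria, with folds of 4.56 (olanzapine) and 2.82 (clozapine).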

How the results depend on the processing

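Of 29 recomputed values, 17 stayed within 1.5 times the count or within the 95% interval of the value as reported, and 12 moved. The number of members fell to 199 with clozapine peaks longer than 200 bp only, to 209 with a -log10 q of at least 2 in both lists and to 164 with overlap only, and was 619 with a gap under 2000 bp. The exonic share was 65.3% with the longer clozapine peaks, 66.5% with overlap only and 66.9% with olanzapine peaks longer than 500 bp. Overlap only also gave a median length of 829.5 bp and a shared gene in 99.4% of pairs. The stricter q gave a median fold enrichment of 4.56 and a shared gene in 97.6%, and peaks longer than 500 bp a median fold of 4.41. The limit to longer peaks and the removal of ribosomal protein genes were chosen after seeing the data. Adding chromosome X moved none of the 5 values. No paired analysis was possible because each drug had 1 library. With no replicates and no read counts, differences between animals and between drugs cannot be told apart.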
